A study of Mus musculus with 24 samples.

Results

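The MYC and MAX network is a small family of transcription factors that share MAX or its relative MLX as a partner. Its 10 members here were Myc, Mycn, Mycl, Max, Mxd1, Mxd3, Mxd4, Mxi1, Mnt and Mlx, taken by gene symbol from 19505 named genes on the array. All 10 were measured, each by 1 feature, which is the set of probes that the array summarises into 1 value. Each sample was a halved kidney from a male mouse of the inbred strain C57BL/6N at 10 weeks of age, read on a Clariom S mouse array. Rhabdomyolysis, a breakdown of skeletal muscle that injures the kidney, was induced with 50% glycerol in leg muscle, and sham animals went through the protocol without glycerol. Animals of both kinds received, under the skin at 20 mg/kg and 24 h before the glycerol step, either anti-miR-22, an antisense oligonucleotide against the microRNA miR-22-3p, or a mismatched mock oligonucleotide. The sham groups had 5 arrays each (mock and anti-miR-22) and the rhabdomyolysis groups 7 each, all from kidneys collected 24 h after glycerol or its sham step. In every group, controls included, drinking water was removed for 23 h and the analgesic carprofen was given at 5 mg/kg. The labels describe a mild and a severe glycerol dose without saying which was used. Nothing in them states that each array is a separate animal, so the p-values rest on a spread among samples that may be technical.

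MYC proteins pair with MAX and raise transcription at E-boxes, short DNA motifs near many genes of growth, ribosome building and metabolism. MXD1, MXD3, MXD4, MXI1 and MNT pair with the same MAX, bind the same motif and recruit SIN3 and histone deacetylases, which lower transcription. MLX works in a parallel arm with the sugar-sensing factors MondoA and ChREBP and can also pair with MNT and some MXD proteins. In the kidney, MYC is known as a gene that comes on quickly in injured tubules. Max and Mycbp, which encodes a MYC-binding protein, have been described as miR-22 targets in other tissues.

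The microRNA and both oligonucleotides are shown because they define the comparison of anti-miR-22 with mock. Mature miR-22-3p (RefSeq, GRCm38.p6, chr11:75463772-75463793, plus strand) is 22 bases long, and capitals mark its seed, bases 2 to 8, which guides target choice. In the oligonucleotides, each 15 bases long, capitals mark the 4 positions at which they differ.
miR-22-3p: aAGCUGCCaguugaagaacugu
anti-miR-22: ctTcAacTggcAgct
mock: ctAcTacAggcTgct
Anti-miR-22 pairs at 15 of 15 bases with bases 2 to 16 of the microRNA, the 7 seed bases included. The mock pairs at 11 of 15, and with 6 of the 7 seed bases. From position 1 at the 5′ end, with the anti-miR-22 base first, the substitutions are T3A, A5T, T8A and A12T.

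The members' own promoters were searched for the E-box letters CACGTG, which read the same on both strands. RefSeq windows of 300 bases (250 before to 50 after an annotated start, GRCm38.p6) covered 9 of the 10 members, and Mxi1 had 3 of the 11 windows. Myc had no window, so its promoter was not searched. The letters occurred in 4 of the 9 members (44.4%), Max, Mlx, Mnt and Mxd4, against 8.91% of 17492 protein-coding genes and 7.15% of 32851 windows. Stretches of 30 bases around each occurrence are shown with the motif in capitals.
Max, chr12:76962234-76962263, minus strand: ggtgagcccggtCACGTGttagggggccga
Mlx, chr11:101087238-101087267, plus strand: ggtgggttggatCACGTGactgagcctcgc
Mnt, chr11:74830789-74830818, plus strand: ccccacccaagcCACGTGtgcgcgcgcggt
Mxd4, chr5:34187912-34187941, minus strand: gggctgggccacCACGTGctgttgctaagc
Counted from the start used for its window, the first motif base lay at -3 for Max, -40 for Mlx, -123 for Mnt and -219 for Mxd4. For Max, Mlx and Mnt that start lies inside the gene span given with each gene below. Their positions therefore do not count from the end of the span. A match describes letters and does not show that a factor binds there.

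Values are the authors' normalized log2 intensities, in which a difference of 1 is a doubling, and probes of different genes are not compared in level. The arrays' lower quartiles lay between 3.909 and 4.028, and features near or below them are dim. The mean level of the kidney markers was between 16.25 and 16.38 in sham mock and between 14.21 and 14.38 in rhabdomyolysis anti-miR-22, while skeletal muscle (4.17 to 4.92) and adrenal (3.96 to 4.32) markers stayed dim. The 5 injured tubule markers had mean levels of 14.76 to 15.73 in the rhabdomyolysis arrays and 6.38 to 6.77 in 9 of the 10 sham arrays. Sham mock array 1 stood apart at 10.08, and member results that use it are given with and without it where a call changed. Counts of the MYC and MLX gene lists that changed without it are given in the section on processing. Kidney pieces are mixtures, so fewer cells of a type and less RNA per cell cannot be told apart.

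With the mock oligonucleotide, glycerol was accompanied by more Myc and Max and by less of several of the repressor partners and Mlx. Of the 10 members, 2 rose (Myc and Max), 4 fell (Mxd1, Mxd4, Mxi1 and Mlx) and 4 did not pass the test (Mycn, Mycl, Mxd3 and Mnt). A gene was called at an adjusted p below 0.05 in limma's fit across all 22205 features. Of all features, 34.4% were called in this comparison, 18% higher and 16.4% lower. The members' median difference was -0.22, against -0.001 over all features. With anti-miR-22, 2 members rose (Myc and Max), 1 fell (Mxi1) and 7 did not pass. Here 37.4% of all features were called, 19.8% higher and 17.6% lower, and the medians were -0.13 for the members and 0.003 for all features. The glycerol comparisons with mock and with anti-miR-22 share no arrays, but they share the fit's estimate of spread. Without sham mock array 1, the 6 members called with mock were again Myc, Max, Mxd1, Mxd4, Mxi1 and Mlx.

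**Figure D1:**
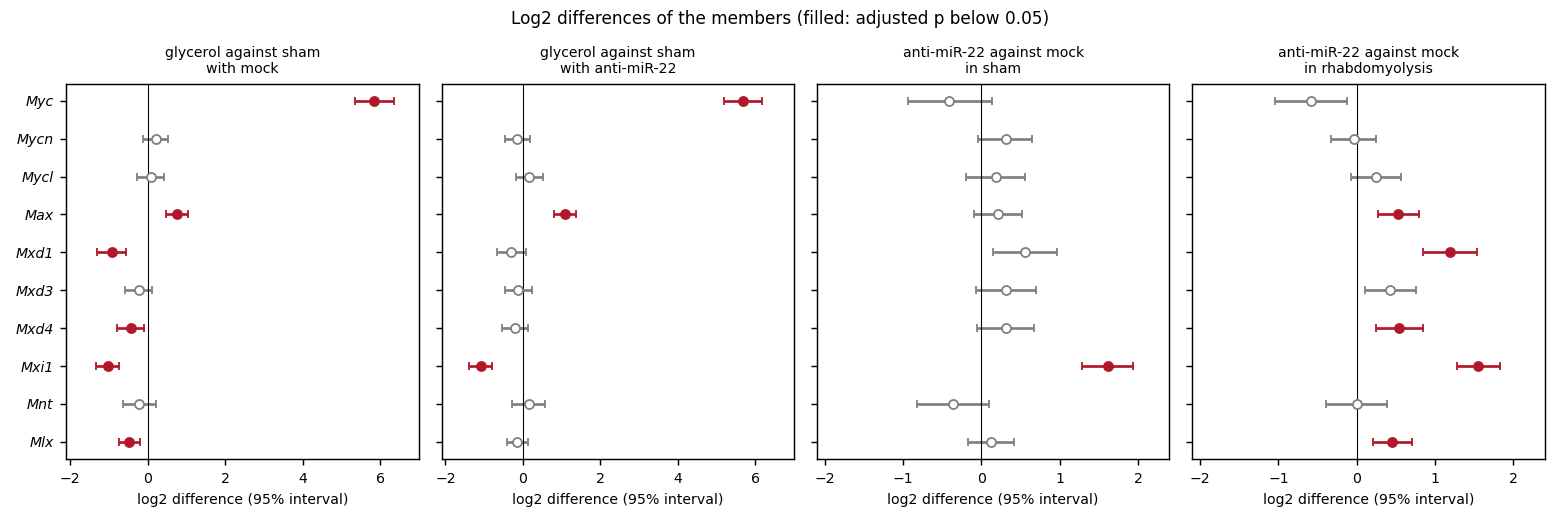
Difference of each member in 4 comparisons, on a log2 axis, with the 95% confidence interval of limma's fit; filled red points have an adjusted p below 0.05. The 2 glycerol panels have a wider axis than the 2 of anti-miR-22 against mock. Myc lies far to the right of the other members in both glycerol comparisons (5.85 with mock and 5.68 with anti-miR-22), and Mxi1 is filled in all 4 comparisons.

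Anti-miR-22 was also set against mock within each state, which asks what the oligonucleotide does to these genes in sham and in injured kidney. In sham kidneys Mxi1 was the 1 member that rose and none fell, where 7.16% of all features were called, 3.85% higher and 3.31% lower. At an unadjusted p below 0.05 the members passing numbered 2, against 17.9% of all features. In rhabdomyolysis kidneys 5 members rose (Mxi1, Mxd1, Mxd4, Max and Mlx) and 0 fell, where 19.6% of features were called, 9.48% higher and 10.2% lower. The lack of a fall rests on limma's adjusted p. At an unadjusted p below 0.05 the members numbered 7, of which Myc was lower, against 29.8% of all features. The members' median difference was 0.26 in sham and 0.44 in rhabdomyolysis, against 0.003 and 0.015 over all features. These comparisons use the same arrays as the glycerol comparisons, so a high value in 1 group enters both.

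**Figure D2:**
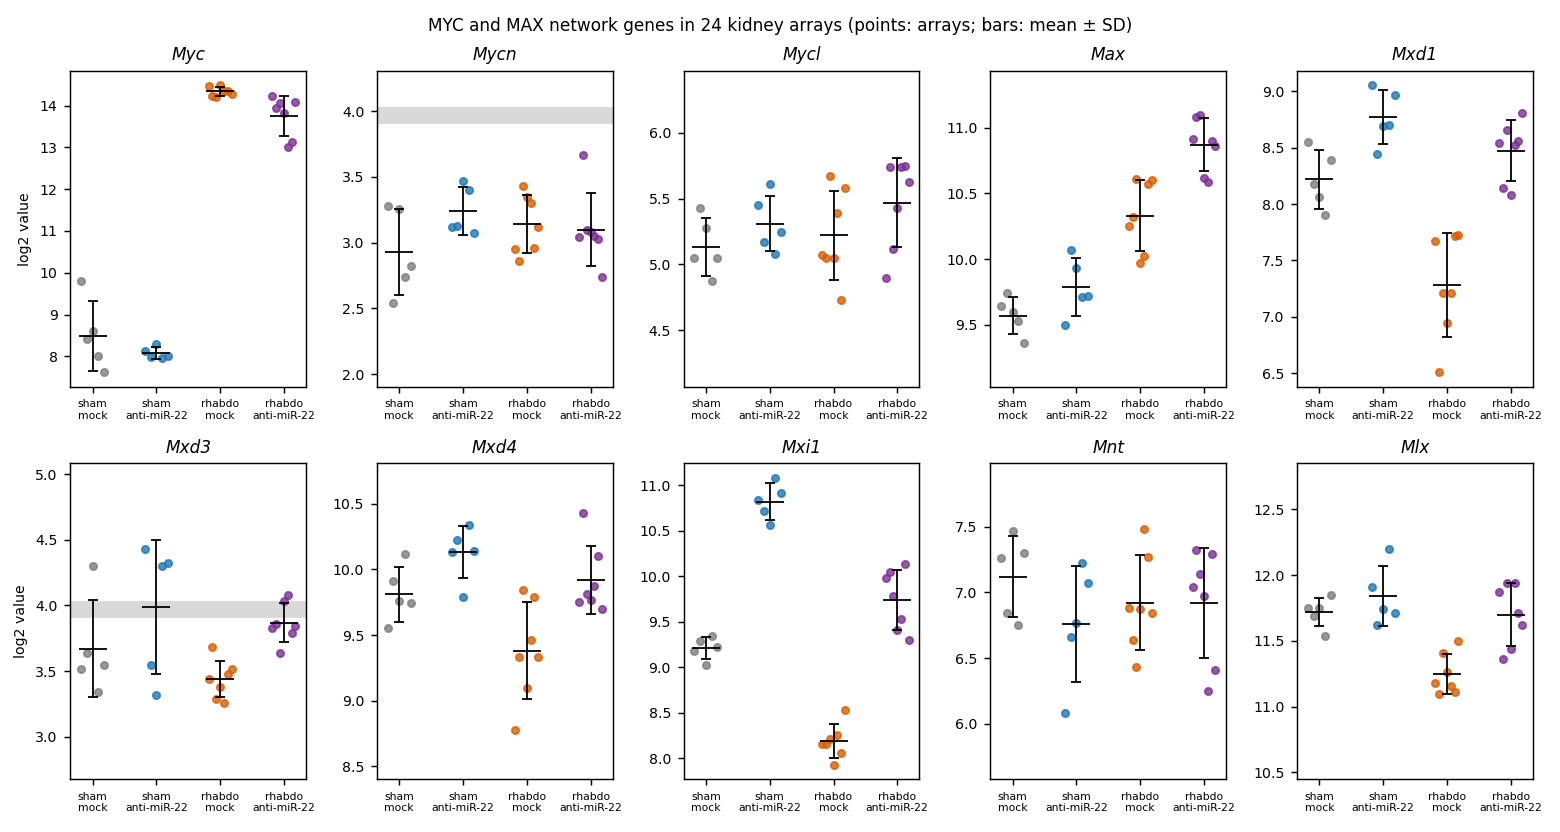
Level of the 10 members on a log2 axis in every array of the 4 groups; points are arrays, bars are the group mean and SD, and the grey band spans the arrays' lower quartiles (3.909 to 4.028). Myc is high in all rhabdomyolysis arrays, Mxi1 is raised with anti-miR-22 in both states, and Mycn lies under the band in every array.

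Myc, the gene of the central growth-promoting MYC factor (TC1500000453.mm.2, chr15:61985341-61990361), had levels of 9.80, 8.41, 8.61, 8.0 and 7.62 in sham mock arrays 1 to 5. In sham anti-miR-22 arrays 1 to 5 it read 8.13, 7.99, 8.29, 7.97 and 8.0. Rhabdomyolysis mock arrays ran from 14.20 through a median of 14.35 to 14.48, and rhabdomyolysis anti-miR-22 arrays from 13.02 through 13.93 to 14.24. Every injured kidney was above every sham kidney, and the highest sham value was that of array 1, the one with high injury markers. Myc rose 57.8-fold with glycerol and mock (5.85 ± 0.24, SE, n = 7 against 5, adjusted p = 4.12e-18). Counted from the highest difference this was rank 14 of 22205 features, and without sham mock array 1 it was 72.6-fold (6.18 ± 0.20). With anti-miR-22 Myc rose 51.2-fold (5.68 ± 0.24, adjusted p = 5.38e-18), rank 18.

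Between oligonucleotides, the Myc group means in injured kidneys were 14.34 ± 0.11 (SD, n = 7) with mock and 13.76 ± 0.48 (n = 7) with anti-miR-22. The groups overlapped, between 14.20 and 14.24. The difference of -0.58 ± 0.22 (95% interval -1.04 to -0.13) missed the threshold at an adjusted p of 0.0633. It passed without sham mock array 1 (0.0135), without sham mock array 5 (0.0411) and without rhabdomyolysis anti-miR-22 array 1 (-0.66, 0.0393). It also passed when the fit used the groups of the comparison alone (-0.58, 0.0202) or allowed for the replicate number (-0.58, 0.0323). In 27 of 32 alternatives it did not pass. Over all 32 the difference ran from -0.66 to -0.46, with adjusted p up to 0.16. Rhabdomyolysis anti-miR-22 arrays 5 and 6 read 13.02 and 13.13, and the other arrays of that group 13.82 to 14.24. In the fit of all groups, the sham arrays enter this comparison through the shared spread. In sham kidneys the Myc difference was -0.41 ± 0.26 (adjusted p = 0.465), and -0.08 ± 0.21 without sham mock array 1.

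Max encodes the shared partner with which MYC and the MXD proteins bind DNA (TC1200001959.mm.2, chr12:76937269-76962323, a span that holds its E-box letters shown above). It read 9.64, 9.74, 9.60, 9.53 and 9.36 in sham mock and 9.50, 10.07, 9.93, 9.71 and 9.72 in sham anti-miR-22. With injury it read 9.97, 10.32 and 10.61 (lowest, median and highest) with mock and 10.59, 10.90 and 11.10 with anti-miR-22. Within each oligonucleotide the injured arrays lay above all the sham arrays, and the injured groups touched at 10.59 to 10.61. Max rose 1.69-fold with glycerol and mock (0.76 ± 0.14, adjusted p = 5.38e-05) and 2.11-fold with glycerol and anti-miR-22 (1.08 ± 0.14, adjusted p = 1.72e-07). Anti-miR-22 against mock raised it 1.45-fold in injured kidney (0.53 ± 0.13, n = 7 against 7, adjusted p = 0.00263). In sham kidney the difference was 0.21 ± 0.15 (adjusted p = 0.534, 95% interval -0.10 to 0.52).

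Mxi1, a repressor of the MXD family that competes with MYC for MAX (TC1900000749.mm.2, chr19:53310128-53373293), had the clearest separation by oligonucleotide among the 10 members. In sham kidneys it read 9.18, 9.29, 9.02, 9.34 and 9.22 with mock and 10.84, 10.72, 10.56, 11.08 and 10.91 with anti-miR-22. In injured kidneys it read 7.93, 8.16 and 8.53 (lowest, median and highest) with mock and 9.30, 9.78 and 10.13 with anti-miR-22. No anti-miR-22 array overlapped a mock array of the same state, and no injured array overlapped a sham array of the same oligonucleotide. Mxi1 rose 3.06-fold with anti-miR-22 in sham (1.61 ± 0.16, n = 5 against 5, adjusted p = 3.16e-08) and 2.94-fold in rhabdomyolysis (1.55 ± 0.13, n = 7 against 7, adjusted p = 2.83e-10). Counted from the highest difference, these were ranks 26 and 74 of 22205 features. It fell 2.03-fold with glycerol and mock (-1.02 ± 0.15, adjusted p = 9.21e-07) and 2.12-fold with glycerol and anti-miR-22 (-1.08 ± 0.15, adjusted p = 3.04e-07). Group means were thus 9.21 ± 0.12 (SD) in sham mock and 9.74 ± 0.33 in rhabdomyolysis anti-miR-22, a pair that was not tested.

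**Figure D3:**
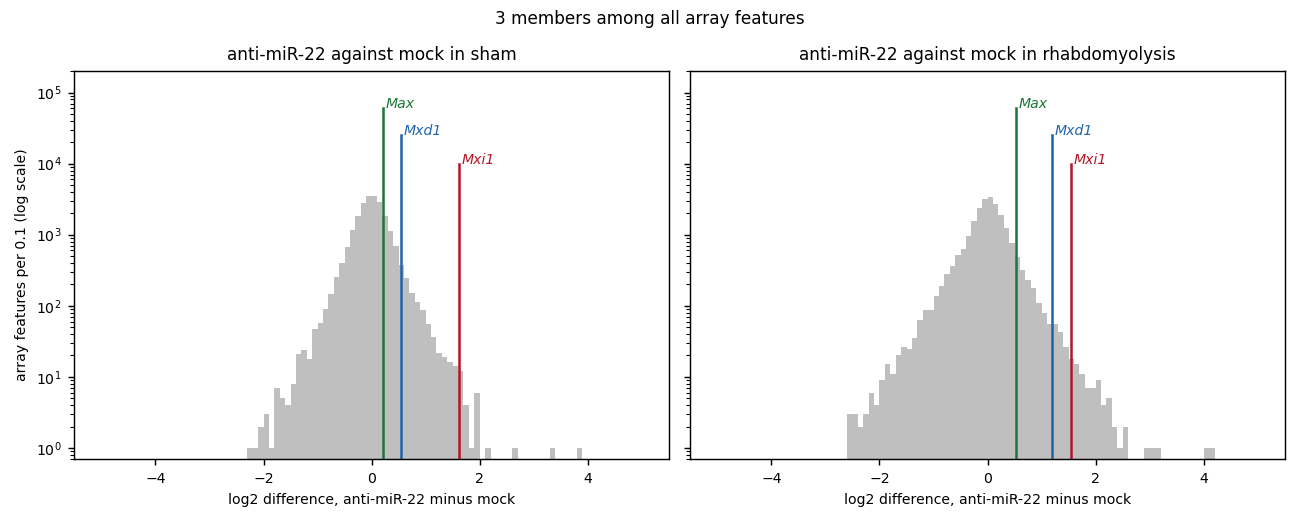
Histograms of the log2 difference of anti-miR-22 minus mock for all 22205 features, in sham and in rhabdomyolysis kidneys (bins of 0.1, counts on a log axis), with lines for Mxi1, Mxd1 and Max. Mxi1 lies far in the right tail in both states (1.61 and 1.55), and Mxd1 lies at 0.55 in sham and 1.19 in rhabdomyolysis.

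Mxd1, a repressor that accompanies the exit from growth in many cell types (TC0600002641.mm.2, chr6:86647044-86669234), read 8.55, 8.18, 8.06, 7.90 and 8.39 in sham mock. It read 9.05, 8.44, 8.69, 8.70 and 8.97 in sham anti-miR-22, overlapping sham mock. Rhabdomyolysis mock arrays gave 6.51, 7.21 and 7.73 (lowest, median and highest), under all other groups. Rhabdomyolysis anti-miR-22 arrays gave 8.08, 8.54 and 8.81, which overlapped both sham groups and lay above all rhabdomyolysis mock arrays. Mxd1 fell 1.91-fold with glycerol and mock (-0.93 ± 0.18, adjusted p = 0.00013). With glycerol and anti-miR-22 the difference was -0.30 ± 0.18 (adjusted p = 0.226). Anti-miR-22 raised it 2.28-fold over mock in injured kidney (1.19 ± 0.17, adjusted p = 3.05e-06, rank 212), and in sham the difference was 0.55 ± 0.20 (adjusted p = 0.0967). The difference between these effects was 0.63 ± 0.26 (adjusted p = 0.29), so the effects in the 2 states were not shown to differ after adjustment.

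Mxd4, another MXD repressor (TC0500002231.mm.2, chr5:34176580-34187710), read 9.55, 9.91, 9.76, 10.12 and 9.74 in sham mock and 10.13, 10.22, 9.79, 10.34 and 10.14 in sham anti-miR-22. With injury it read 8.78, 9.33 and 9.84 with mock and 9.70, 9.81 and 10.43 with anti-miR-22, and the groups overlapped in each of the 4 comparisons. Anti-miR-22 raised it 1.46-fold in injured kidney (0.54 ± 0.15, adjusted p = 0.00846). It fell 1.36-fold with glycerol and mock (-0.44 ± 0.16, adjusted p = 0.0371). That call was lost without sham mock array 2 (0.0767), 3 (0.0508) or 4 (0.121) and without rhabdomyolysis mock array 1 (0.0992), 2 (0.0547), 4 (0.0762) or 7 (0.0548). It was also lost when arrays were centred on their medians (0.0611) and when the fit used the groups of the comparison alone (0.0646). With glycerol and anti-miR-22 the Mxd4 difference was -0.21 ± 0.16 (adjusted p = 0.366), and in sham between oligonucleotides 0.31 ± 0.18 (0.387).

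Mxd3, a member of the same repressor family linked to dividing cells (TC1300002053.mm.2, chr13:55325170-55329900), was dim, and no fold is given. It read 3.52, 3.64, 4.30, 3.34 and 3.55 in sham mock and 4.43, 3.55, 3.32, 4.30 and 4.32 in sham anti-miR-22. Injured arrays lay between 3.26 and 3.68 with mock and between 3.64 and 4.08 with anti-miR-22. The 4.30 of sham mock array 3 came with the highest proliferation marker mean among sham mock arrays (8.98, against 5.56 to 7.46). Sham anti-miR-22 arrays 1, 4 and 5 read 4.43, 4.30 and 4.32 at lower proliferation means of 6.63, 6.39 and 6.50. Arrays 2 and 3 of that group read 3.55 and 3.32 at 6.59 and 5.24. The part of dividing cells in the Mxd3 values was not tested. In no comparison did Mxd3 pass. Its difference between oligonucleotides in injured kidney was 0.43 ± 0.16 (adjusted p = 0.0527). This passed without sham mock array 3 (0.0324) or sham anti-miR-22 array 1 (0.045), 2 (0.046) or 3 (0.0297). It also passed without rhabdomyolysis mock array 2 (0.0438) or rhabdomyolysis anti-miR-22 array 3 (0.0465), and with the groups of the comparison alone (0.0103). In 24 of 31 alternatives it did not pass.

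Mnt, a broadly expressed repressor that pairs with MAX and MLX (TC1100001050.mm.2, chr11:74830806-74845725), overlapped between groups in all 4 comparisons. Its group means were 7.12 ± 0.31 (SD, n = 5) in sham mock, 6.76 ± 0.44 (n = 5) in sham anti-miR-22, and 6.92 ± 0.36 and 6.92 ± 0.42 (n = 7 each) with injury under mock and anti-miR-22. The difference between oligonucleotides in injured kidney was 0.00 ± 0.19 (95% interval -0.39 to 0.39), and with glycerol and mock -0.21 ± 0.21 (adjusted p = 0.505).

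Mlx, the partner of MondoA and ChREBP (TC1100001641.mm.2, chr11:101086707-101092207), read 11.75, 11.69, 11.75, 11.54 and 11.85 in sham mock. It read 11.91, 11.62, 11.74, 12.20 and 11.71 in sham anti-miR-22. Injured kidneys gave 11.10, 11.18 and 11.50 (lowest, median and highest) with mock, all below sham mock, and 11.36, 11.71 and 11.94 with anti-miR-22, which overlapped sham anti-miR-22. Mlx fell 1.39-fold with glycerol and mock (-0.47 ± 0.13, adjusted p = 0.00474). With glycerol and anti-miR-22 the difference was -0.14 ± 0.13 (adjusted p = 0.459, 95% interval -0.41 to 0.13). Anti-miR-22 raised Mlx 1.37-fold in injured kidney (0.45 ± 0.12, adjusted p = 0.00594), and in sham the difference was 0.12 ± 0.14 (adjusted p = 0.758).

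The MYC paralogs were quiet. Mycn, known from embryonic kidney (TC1200001432.mm.2, chr12:12936093-12941836), lay between 2.54 and 3.67 and under the lower quartile in every array, so it was too dim for a fold. Mycl (TC0400001386.mm.2, chr4:122995588-123002490) lay between 4.73 and 5.75. Its group means were 5.13 ± 0.22 (SD) in sham mock, 5.31 ± 0.21 in sham anti-miR-22, 5.22 ± 0.34 in rhabdomyolysis mock and 5.47 ± 0.34 in rhabdomyolysis anti-miR-22. Neither gene passed in any comparison, and the nearest Mycl came was 0.25 ± 0.16 (adjusted p = 0.299) between oligonucleotides in injured kidney.

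Whether anti-miR-22 acted differently in injured and in sham kidney was tested as an interaction, which also tests whether the glycerol response differed with the oligonucleotide. None of the 10 members passed by limma, where 0.383% of all features were called (85 features). At an unadjusted p below 0.05, 1 member passed, Mxd1, against 12.4% of all features. Of the pathway list genes, Sin3b and Pa2g4 passed, with effects that differed by -0.90 ± 0.19 and 0.82 ± 0.18 (adjusted p = 0.0274 and 0.0338), and 5 and 7 of the 24 fits without 1 array ended these calls. For Mxi1 the difference of effects was -0.06 ± 0.21 (95% interval -0.48 to 0.36) and for Myc -0.18 ± 0.34 (-0.88 to 0.53). For Max it was 0.32 ± 0.20 (-0.09 to 0.73) and for Mlx 0.33 ± 0.18 (-0.05 to 0.71). The calls of Mxd1, Mxd4 and Mlx with glycerol and mock but not with anti-miR-22 are therefore not shown to be a difference between the oligonucleotides.

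Marker levels moved beside these results. The shares of all features called were 18% higher and 16.4% lower with glycerol and mock, and 19.8% and 17.6% with glycerol and anti-miR-22. In the lists of 7 or 9 markers, counts of 1 marker do not exceed these shares. Of 4 adrenal markers 1 rose in each comparison, Star. It rose by 0.80 ± 0.17 with mock and 0.94 ± 0.17 with anti-miR-22 (limma, adjusted p = 0.000248 and 2.38e-05). With glycerol and mock, 7 of 9 kidney markers fell, and 6 of 9 macrophage markers rose while 1 fell; macrophage mean levels were 6.18 to 6.75 in sham mock and 7.16 to 7.67 in rhabdomyolysis mock. Of 7 stroma markers 5 rose and 1 fell, with mean levels of 8.26 to 8.86 in sham mock and 9.31 to 9.65 in rhabdomyolysis mock. Of 7 neutrophil markers 4 rose and 1 fell, of 7 endothelial markers 2 rose and 3 fell, and of 7 lymphocyte markers 2 fell. With glycerol and anti-miR-22, 8 of 9 kidney markers fell, and 4 of 9 macrophage markers rose while 1 fell. There 4 of 7 stroma markers rose and 1 fell, 4 of 7 neutrophil markers rose, 1 of 7 endothelial markers rose and 3 fell, and 1 of 7 lymphocyte markers fell. Of 9 proliferation markers, 7 fell with mock and 2 with anti-miR-22. Their mean levels were widely spread in sham mock (5.56 to 8.98) and overlapped rhabdomyolysis mock (5.04 to 5.91). Injured group means were 5.61 with mock and 5.54 with anti-miR-22, and 0 of the 9 passed limma's adjusted test in the interaction.

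Between oligonucleotides in injured kidney, 3 of 9 kidney, 3 of 9 macrophage and 3 of 7 endothelial markers fell and 2 of 7 neutrophil markers rose. Of all features, 10.2% were lower and 9.48% higher there. Of the 5 injured tubule markers Sox9 rose (1.13 ± 0.31) and Krt20 fell (-1.22 ± 0.39), and of the 7 stroma markers Tagln rose (0.81 ± 0.21) and Col1a2 fell (-0.66 ± 0.16). In sham kidney, 1 of 9 kidney and 2 of 7 endothelial markers fell, where 3.31% of all features were lower and 3.85% higher. None of the macrophage, neutrophil, lymphocyte, stroma, proliferation or injured tubule markers passed limma's adjusted test in sham. In the interaction 1 endothelial marker passed, Kdr, a receptor for the vascular growth factor VEGF (-0.96 ± 0.22, adjusted p = 0.0436), and 18 of the 24 fits without 1 array ended that call. The part of cell composition in the members' differences was not tested.

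Genes commonly listed as activated by MYC were mostly higher in injured kidney. Of 32 measured, 23 rose and 2 fell with mock (median 1.01), and 22 rose and 2 fell with anti-miR-22 (median 1.07), beside the shares of all features given above. Srm, the spermidine synthase gene, rose by 3.19 ± 0.14 with mock and 3.32 ± 0.14 with anti-miR-22, from sham group means of 10.15 and 10.23 to 13.34 and 13.55. The leucine transporter gene Slc7a5 rose by 2.84 ± 0.17 and 2.63 ± 0.17, and the nucleolar helicase gene Ddx21 by 2.67 ± 0.15 and 2.99 ± 0.15. Nop58, a core protein of small nucleolar particles, rose by 2.38 ± 0.17 and 3.18 ± 0.17. The listed genes that fell were Shmt2, the mitochondrial serine hydroxymethyltransferase, at -2.0 ± 0.18 and -2.26 ± 0.18, and Odc1, ornithine decarboxylase, at -0.62 ± 0.14 and -0.39 ± 0.14. The second Odc1 value (adjusted p = 0.0297) lost its call in 5 of 24 fits that left out 1 array, with its highest adjusted p, 0.138, without sham anti-miR-22 array 4.

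**Figure D4:**
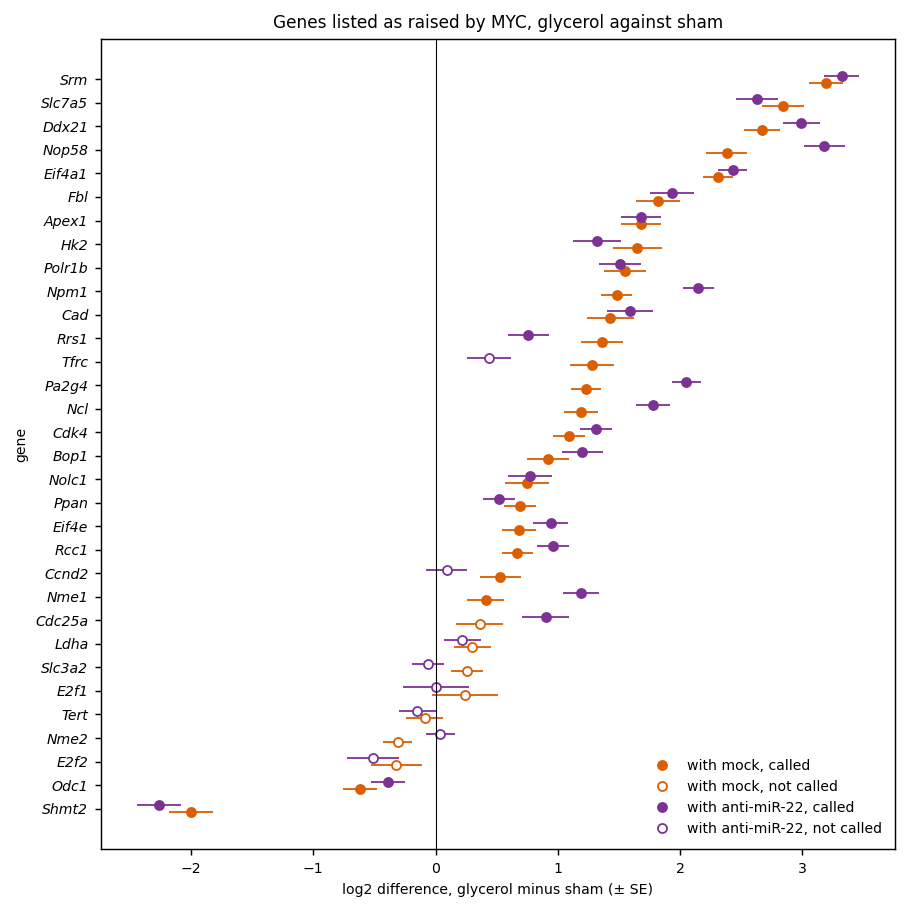
Log2 difference of glycerol minus sham for the 32 measured genes listed as activated by MYC, with mock (orange) and with anti-miR-22 (purple), with standard errors; filled points have an adjusted p below 0.05. Most points lie right of 0, 23 genes rose with mock and 22 with anti-miR-22, and Shmt2 lies furthest left.

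Between oligonucleotides the same list was split. In sham, 2 of 32 rose and 1 fell (median -0.05), beside 3.85% and 3.31% of all features. In injured kidney 6 rose and 5 fell (median 0.02), beside 9.48% and 10.2%. Tfrc, the transferrin receptor gene, rose by 0.78 ± 0.20 in sham (adjusted p = 0.011). The other sham calls, Pa2g4 (0.43 ± 0.13) and Fbl, the fibrillarin gene (-0.64 ± 0.19), ended in 9 and 8 of the 24 fits without 1 array. In injured kidney Pa2g4, which encodes a growth-regulated RNA-binding protein, rose by 1.25 ± 0.11 (adjusted p = 9.35e-10). The nucleoside diphosphate kinase gene Nme1 rose by 0.89 ± 0.14 and the cell-cycle phosphatase gene Cdc25a by 0.89 ± 0.18. The cyclin gene Ccnd2 fell (-0.94 ± 0.16), as did Shmt2 (-0.79 ± 0.16) and Slc7a5 (-0.58 ± 0.15).

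Genes commonly listed as repressed by MYC went both ways with glycerol. Of 10 measured, 4 rose and 4 fell with mock (median 0.15), where 18% of all features were higher and 16.4% lower. With anti-miR-22 likewise 4 rose and 4 fell (median -0.19), beside 19.8% and 17.6% of all features. Cdkn1a, which encodes the cell-cycle inhibitor p21, rose by 5.33 ± 0.25 with mock and 5.21 ± 0.25 with anti-miR-22. The matrix protein gene Thbs1 rose by 2.56 ± 0.16 and 2.23 ± 0.16, and the stress gene Gadd45a by 2.28 ± 0.18 and 2.50 ± 0.18. The kidney-rich gene Ndrg2 fell (-2.47 ± 0.15 with mock and -2.93 ± 0.15 with anti-miR-22). So did the growth arrest gene Gas1 (-1.11 ± 0.15 and -1.37 ± 0.15) and the cell-cycle inhibitor gene Cdkn1b (-1.01 ± 0.17 and -1.33 ± 0.17). In sham between oligonucleotides 0 of the 10 passed limma's adjusted test, beside 7.16% of all features (2 at an unadjusted p below 0.05, beside 17.9%). In injured kidney, where 9.48% of all features were higher and 10.2% lower, 0 rose and 4 fell (median -0.34). Unadjusted, 2 rose and 6 fell, where 29.8% of all features passed. The 4 that fell after adjustment included Thbs1 (-0.82 ± 0.14), Ndrg2 (-0.70 ± 0.14) and Pdgfrb (-0.47 ± 0.14). Pdgfrb lost its call without rhabdomyolysis mock array 2 (0.0509).

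Cofactors that MYC or the repressors recruit included 14 measured genes, of which 9 rose and 0 fell with glycerol and mock (median 0.35), beside 18% and 16.4% of all features. With glycerol and anti-miR-22, 7 rose and 1 fell (median 0.29), beside 19.8% and 17.6%. The largest rises were of Ruvbl1 (1.38 ± 0.15 and 1.54 ± 0.15) and Ruvbl2 (1.07 ± 0.17 and 1.30 ± 0.17), helicases of chromatin complexes, and of Smarcb1 (1.00 ± 0.13 and 1.28 ± 0.13), a SWI/SNF subunit. Sin3b, a SIN3 scaffold through which MXD proteins recruit histone deacetylases, rose with mock (0.39 ± 0.13, adjusted p = 0.0205) and fell with anti-miR-22 (-0.51 ± 0.13, adjusted p = 0.00236). Its rise with mock was lost without sham mock array 5 (0.0632) or rhabdomyolysis mock array 6 (0.0504). Its levels were 8.07 ± 0.12 (SD, n = 5) in sham mock, 8.07 ± 0.17 in sham anti-miR-22, 8.46 ± 0.22 (n = 7) in rhabdomyolysis mock and 7.56 ± 0.23 in rhabdomyolysis anti-miR-22. The injured groups did not overlap, since the lowest mock value was 8.24 and the highest anti-miR-22 value 7.89. Sin3a, the other SIN3 gene of the list, did not pass with glycerol and mock (0.05 ± 0.16, limma, adjusted p = 0.861). Nor did Sin3a pass with glycerol and anti-miR-22 (-0.02 ± 0.16, 0.956) or in the interaction (-0.06 ± 0.22, 0.951).

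Anti-miR-22 against mock moved cofactors in both directions. In sham 2 of the 14 rose and 1 fell (median -0.13), beside 3.85% and 3.31% of all features. In injured kidney 4 rose and 4 fell (median -0.27), beside 9.48% and 10.2%. Ep400, an ATPase of a histone acetyltransferase complex, rose by 0.80 ± 0.15 in sham and 0.86 ± 0.13 in injured kidney. Smarcb1 rose by 0.48 ± 0.14 and 0.77 ± 0.12, and the sham call ended in 6 of the 24 fits without 1 array. The histone deacetylase gene Hdac2 fell (-0.51 ± 0.16 in sham and -0.73 ± 0.13 in injured kidney), and the sham call ended in 9 of those fits. In injured kidney Wdr5, a subunit of histone methyltransferase complexes, rose by 0.74 ± 0.15, while Sin3b (-0.90 ± 0.12, adjusted p = 1.18e-06) and the acetyltransferase gene Kat2a (-0.70 ± 0.14) fell.

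Genes acting on the stability of MYC protein had 10 measured members, of which 5 rose and 1 fell with glycerol and mock (median 0.41), beside 18% and 16.4% of all features. With glycerol and anti-miR-22, 7 rose and 0 fell (median 0.68), beside 19.8% and 17.6%. With mock the kinase genes Gsk3b, which marks MYC for breakdown (0.76 ± 0.12), and Pim1, which stabilises it (0.71 ± 0.19), both rose, as did the deubiquitinase gene Usp36 (0.70 ± 0.16). Cip2a, an inhibitor of the phosphatase that destabilises MYC, fell (-0.70 ± 0.21, adjusted p = 0.00854), and the call ended without sham mock array 3 (0.0515). With anti-miR-22 Pim1 (0.92 ± 0.19) and the ubiquitin ligase genes Skp2 (0.80 ± 0.22) and Fbxw7 (0.78 ± 0.19) rose. Between oligonucleotides 0 of the 10 passed limma's adjusted test in sham, beside 7.16% of all features (2 at an unadjusted p below 0.05, beside 17.9%). In injured kidney Gsk3b (-0.39 ± 0.11) and Usp36 (-0.42 ± 0.14) fell and 0 rose, beside 10.2% and 9.48% of all features. Unadjusted, 2 rose and 2 fell, where 29.8% of all features passed. The Usp36 call ended in 8 of the 24 fits without 1 array.

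On the MLX side, 9 genes listed as targets of MLX with MondoA or ChREBP were measured, and with glycerol and mock 4 rose and 4 fell (median 0.26), beside 18% and 16.4% of all features. With anti-miR-22, 4 rose and 3 fell (median 0.43), beside 19.8% and 17.6%. The pyruvate kinase gene Pklr rose by 3.14 ± 0.27 and 2.86 ± 0.27 and the transcription factor gene Klf10 by 1.33 ± 0.26 and 1.31 ± 0.26. The glucose-6-phosphatase gene G6pc fell (-6.36 ± 0.44 and -7.27 ± 0.44), as did the fructokinase gene Khk (-2.40 ± 0.17 and -2.79 ± 0.17), both genes of the proximal tubule. Txnip, the arrestin-like gene that MondoA is best known to raise, fell with mock (-0.66 ± 0.17, adjusted p = 0.00337). With anti-miR-22 the Txnip difference did not pass limma's test (-0.36 ± 0.17, adjusted p = 0.114). Between oligonucleotides in injured kidney 0 rose and 5 fell (median -0.42), beside 9.48% and 10.2% of all features. Unadjusted, 1 rose and 5 fell, where 29.8% of all features passed. The falls of Klf10 (-1.01 ± 0.24) and Khk (-0.70 ± 0.15) were called in all 24 fits without 1 array, and that of G6pc (-1.28 ± 0.41, adjusted p = 0.0227) was lost in 6 of them (up to 0.0677). The count of 5 that fell was 2 without rhabdomyolysis mock array 5 and 3 without rhabdomyolysis mock array 2, 4 or 6 or rhabdomyolysis anti-miR-22 array 2, 3, 4 or 5, and it was 2 with the groups of the comparison alone. In sham 1 rose, Pklr (0.96 ± 0.29), and 1 fell, Klf10 (-0.99 ± 0.28), beside 3.85% and 3.31% of all features. These sham calls ended in 8 and 4 of the 24 fits.

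Other proteins of the network listed here were Mlxip, Mlxipl, Mga and Tfap4. Of these 4, 1 fell and 0 rose with glycerol and mock, beside 16.4% and 18% of all features. With glycerol and anti-miR-22, 1 rose and 0 fell, beside 19.8% and 17.6%. Unadjusted, 1 rose and 1 fell there, where 43.6% of all features passed. Mlxipl, which encodes ChREBP, fell with mock (-0.73 ± 0.22, adjusted p = 0.00937), and that call ended without sham mock array 2 (0.069). In injured kidney Mlxipl rose with anti-miR-22 against mock by 0.79 ± 0.20 (adjusted p = 0.0043), from a mean of 9.51 ± 0.32 (SD, n = 7) to 10.30 ± 0.27, with overlapping arrays. Mlxip, which encodes MondoA, rose with glycerol and anti-miR-22 (0.72 ± 0.15) and between oligonucleotides in injured kidney (0.39 ± 0.14, adjusted p = 0.0402), the latter ending in 8 of the 24 fits. In sham between oligonucleotides 0 of the 4 passed limma's test, adjusted or unadjusted, beside 7.16% and 17.9% of all features.

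The genes with profiles most like each member were found by the root mean square difference of log2 values over the 24 arrays, each gene centred on its sham mock mean, among 19504 other genes. For Myc they were Akr1b8 (0.56), the heme oxygenase gene Hmox1 (0.58) and Lgals3 (0.62), and for Max Gcnt2 (0.20), Cfl2 (0.22) and Tm4sf1 (0.22). For Mxi1 they were Kiz (0.33), Gtf3c1 (0.35) and Mlec (0.38), and for Mxd1 Snap23, Bcl7a and Paip2 (0.30 each). For Mxd4 they were Nampt (0.24), Idh1 (0.25) and Gm4894 (0.25), and for Mlx Mrpl49 (0.20), Prdx2 (0.21) and Ormdl2 (0.21). The arrays share groups and injury state, so these distances describe likeness in this design.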

How the data were processed

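Values are the authors' deposited log2 intensities, and the log base is taken from RMA, since the table does not state it. Partek 6.4 and RMA, which normalizes arrays to each other, are named per the submitters' processing notes without settings. Of 22206 table lines, 1 with missing values was left out. The 22205 features carried 19572 single gene symbols (platform annotation checked against RefSeq, 0 changed), and 2633 had none. Locations are gene spans in GRCm38.p6 from RefSeq. Array medians were 5.752 to 5.857. Arrays have no read depth; their number limits the precision.

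The 4 group means were estimated in a single limma 3.58.1 model (lmFit, eBayes; R 4.3.3) of the 24 arrays. Tests were two-sided, with Benjamini-Hochberg adjustment over all features, and folds are antilogs of the log2 differences. The script was tested on simulated data. Where a gene had several features, the brightest was used. The members and lists were chosen with earlier results of these data known. The text names all members, up to 3 called genes per list, direction and comparison by size, and the 3 nearest profiles of a member. Some listed genes were not analysed here. No batch is given in the sources used here. The replicate numbers were not used to pair samples in the main fit. Same-numbered arrays of different groups deviated together with r from -0.108 to 0.102 (median 0.011, 32 pairs, 1 over 0.1). Between the injured groups r ran from -0.019 to 0.102 and was positive for every number but 7. Whether the numbers pair those arrays was not tested. Alternatives were other moderation, normalization, filtering, weights, a replicate block, the compared groups alone and leaving out each array.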

Additional observations from a re-analysis of the deposited data

Results flagged for a closer look

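Mycn in rhabdomyolysis anti-miR-22 array 2 read 3.67, where the other 6 arrays of that group lay between 2.74 and 3.10. The gap was 0.613 of the group's range, past Dixon's critical value of 0.568. It was 1 flag among 40 combinations of member and group, and chance alone flags about 1 in 20.

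For Sin3b, the anti-miR-22 effect differed between states: 0.00 ± 0.14 in sham and -0.90 ± 0.12 in rhabdomyolysis, a difference of -0.90 ± 0.19 (limma, adjusted p = 0.0274). Leaving out 1 array at a time gave -0.96 to -0.83, and 5 of 24 such fits lost the call: those without sham mock array 3 (0.0504) or 5 (0.0556), sham anti-miR-22 array 1 (0.0504) or 2 (0.0655), or rhabdomyolysis anti-miR-22 array 4 (0.0509).

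For Pa2g4 the effects were 0.43 ± 0.13 in sham and 1.25 ± 0.11 in rhabdomyolysis, a difference of 0.82 ± 0.18 (limma, adjusted p = 0.0338). Its levels were 12.34 ± 0.18 (SD) in sham mock, 12.78 ± 0.10 in sham anti-miR-22, 13.57 ± 0.19 in rhabdomyolysis mock and 14.83 ± 0.18 in rhabdomyolysis anti-miR-22. Leaving out 1 array at a time gave 0.76 to 0.87, and 7 of 24 such fits lost the call: those without sham mock array 1 (0.054) or 3 (0.0639), sham anti-miR-22 array 1 (0.0531), 4 (0.0645) or 5 (0.0623), rhabdomyolysis mock array 5 (0.0543) or rhabdomyolysis anti-miR-22 array 4 (0.0581).

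For Kdr, an endothelial marker, the effects were -0.66 ± 0.17 in sham and -1.62 ± 0.14 in rhabdomyolysis, a difference of -0.96 ± 0.22 (limma, adjusted p = 0.0436). Leaving out 1 array at a time gave -1.05 to -0.88, and 18 of 24 such fits lost the call (adjusted p up to 0.0878, without sham anti-miR-22 array 4). The 6 that kept it were those without sham mock array 1, sham anti-miR-22 array 3, rhabdomyolysis mock array 3 or 7, or rhabdomyolysis anti-miR-22 array 2 or 7.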

How the results depend on the processing

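Over 32 alternatives the number of members called was 5 to 6 for glycerol with mock (6 as reported), 3 to 4 for glycerol with anti-miR-22 (3), 1 to 2 for anti-miR-22 in sham (1), 5 to 7 for anti-miR-22 in rhabdomyolysis (5), and 0 in all 31 that gave a value for the difference. With each array left out in turn these were 5 to 6, 3, 1, 5 to 6 and 0. Of 1580 member values, 1557 kept their side of the threshold, 9 lost a call and 14 gained one. Among values called in either fit, 0 changed sign. Values called in neither fit could change sign, as Myc did in the difference of effects (-0.50 to 0.04). Under the replicate block 2 members passed in sham between oligonucleotides, with Mxd1 added (adjusted p = 0.0165); Mxd1 also fell with glycerol and anti-miR-22 (-0.43, 0.0168), and Myc was lower with anti-miR-22 in injured kidney (-0.58, 0.0323). The block changed no other member's call, and 6 of 24 arrays were matched best by an array of their own number. Over all features the difference of effects was called for 85 as reported, 173 with trend and robust moderation, 136 with a second quantile normalization, 140 without dim features, 141 with array weights, and as few as 28 (without rhabdomyolysis anti-miR-22 array 4) or as many as 138 (without rhabdomyolysis mock array 3) with 1 array left out. Centring arrays moved the median of all features by at most 0.033. Of 1908 list counts, 127 moved by over 1.5 times. Without sham mock array 1, 22 MYC-activated genes rose with glycerol and mock (23 as reported), and 4 stability genes rose (5). In sham between oligonucleotides, 0 cofactors (1) and 0 MYC-activated genes (1) then fell, and 1 MYC-repressed gene rose (0). In the interaction, 0 MYC-activated genes then passed (1). Mycn and Mxd3 gave no value once dim features were left out, and the groups of a comparison alone give none for the difference. Each member has 1 feature, so averaging features could not alter it. Dim signal limits Mycn and Mxd3, for which no detection call was used.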

Other observations

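Mycbp, which encodes a MYC-binding protein and was added after its values were seen, fell with glycerol and mock (-0.59 ± 0.21, limma, adjusted p = 0.0293). Its difference was -0.26 ± 0.21 with glycerol and anti-miR-22 (adjusted p = 0.369), -0.51 ± 0.23 between oligonucleotides in sham (0.215) and -0.19 ± 0.19 in injured kidney (0.585). Max, described together with it as a miR-22 target elsewhere, differed by 0.21 in sham and 0.53 in injured kidney.

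Values of 3 further list genes, chosen after they were seen, follow. Fbxw7, the ubiquitin ligase gene that targets MYC, read 6.14 ± 0.21 (SD, n = 5) in sham mock and 5.55 ± 0.33 in sham anti-miR-22, and 6.28 ± 0.44 (n = 7) and 6.32 ± 0.31 with injury under mock and anti-miR-22. E2f1 (4.70 to 5.14) and Tert (3.61 to 3.81), both listed as MYC-activated, are given as the lowest and highest of their 4 group means.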
